A study of Mus musculus with 21 samples.

Results

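Calcium handling genes of heart muscle were followed across sections of the mouse heart and across treatment with nanoplastics. The 10 genes were named for what their proteins do, with earlier results of these libraries known, and all of them were found among the 20960 genes of the table. They are Ryr2, Casq2, Trdn and Jph2 of the calcium release unit, Atp2a2 and Pln of calcium uptake, Cacna1c and Slc8a1 of the outer membrane, and the regulators Camk2d and S100a1. Hearts came from adult male wild-type mice that received polystyrene nanoplastics, plastic particles of nanometre size, for 8 weeks (4 mice, labelled Nanoplastics), or distilled water (3 mice, labelled Control). Every heart gave 3 bulk RNA libraries, from its atrial, right ventricular and left ventricular sections as labelled, so that 7 mice gave 21 libraries and libraries of the same mouse share an animal. The labels give no dose and no route of administration, and the series' title names rhythm disturbance in human heart muscle cells as its subject.

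With each beat, calcium enters a heart muscle cell through the L-type channel and opens the ryanodine receptor on the sarcoplasmic reticulum, the internal calcium store, and the calcium released there drives contraction. Relaxation follows when the SERCA pump returns calcium to the store and the sodium-calcium exchanger carries the remainder out of the cell. Inherited defects of RYR2, CASQ2 and TRDN are known causes of exercise-induced ventricular arrhythmia, and the balance of pump and its inhibitor phospholamban sets how fast the heart relaxes.

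The libraries held between 4662 and 2439314 counts, and the 10 genes together took 0.973% to 1.32% of them. The lowest total belonged to the right ventricle of nanoplastics mouse 2, where Ryr2, Jph2, Cacna1c and Camk2d had 0 counts. A single count there corresponds to 214.5 CPM before scaling (CPM, the usual share of a library's counts on a fixed scale), and a count of 0 allows up to 643.5 CPM (3 counts, counting error only), so the levels of these genes in that library were not detectable at this depth. The levels below leave it out unless it is named, and right ventricular treatment differences that are quoted are given with and without it. TMM scaling of CPM gave this library a factor of 2.6, against 0.7832 to 1.12 in the others, and CPM are divided by that factor. Each edgeR comparison set its own factors. The part of the scaling in values given with this library was not tested. The right ventricular totals did not overlap between treatments, with 1333133 to 2042568 counts in controls and 4662 to 813585 in nanoplastics mice (exact two-sided permutation p = 0.0286, the smallest that 3 against 4 mice allow, and 0.343 adjusted over 24 library measures). The part of this depth gap in the right ventricular results was not tested beyond leaving out the lowest library. Heart muscle markers were abundant everywhere: the summed CPM of 10 cardiomyocyte markers, none at a median of 0, was 55610 ± 7002 (SD, n = 3) in control hearts and 59980 ± 5146 (SD, n = 4) in nanoplastics hearts (exact permutation p = 0.486). For these sums a heart is the mean over the libraries of a mouse, with the library of 4662 counts included. The label atrial is poorly borne out, since the 10 atrial muscle markers summed to 254.5 to 686.2 CPM in the control atrial sections and to 73.3, 299.0, 3230.9 and 64049.5 CPM in those of nanoplastics mice 3, 2, 4 and 1, while the 7 ventricular muscle markers summed to 13880 to 22690 CPM in the same sections. In the right and left ventricles, the atrial muscle markers summed to 145.1 to 308.3 and 86.0 to 355.6 CPM in controls. In nanoplastics mice they summed to 351.8 to 545.6 CPM, without the library of 4662 counts, and 84.6 to 2292 CPM. The highest of these was the left ventricle of nanoplastics mouse 4. In bulk tissue, fewer cells of a type and less RNA per cell cannot be told apart.

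Divided by annotated transcript length, S100a1 had the highest level of the 10, followed by Pln, whereas by CPM alone Pln stood above S100a1. Taken per kilobase of the longest annotated transcript, the median over the 20 libraries was 5020 CPM per kb for S100a1, which encodes a calcium sensor protein, and 2210 CPM per kb for Pln, and this order held in 20 of 20 libraries. The pump Atp2a2 at 261, the junctional protein Trdn at 253 and the calcium buffer Casq2 at 244 CPM per kb formed a middle group whose order was not stable: Atp2a2 stood above Trdn in 12 of 20 libraries and Trdn above Casq2 in 14 of 20. All 3 stood well above the release channel Ryr2, at 10.3 CPM per kb, which was below Casq2 in 20 of 20 libraries. The kinase Camk2d followed at 7.13, the exchanger Slc8a1 at 4.38, the junctophilin Jph2 at 3.21 and the L-type channel subunit Cacna1c at 1.49 CPM per kb. Camk2d was above Slc8a1 in 20 of 20 libraries, Slc8a1 above Jph2 in 15 and Jph2 above Cacna1c in 17. Barcodes are added at the 5′ end of the RNA, so counts may not grow with length, and which isoform was made is not known. The order therefore depends on the divisor. Undivided median CPM were 5159 for Pln, 3396 for S100a1, 1479 for Atp2a2, 1142 for Trdn and 624 for Casq2. They were 172.4 for Ryr2, 80.9 for Slc8a1, 39.36 for Camk2d, 19.59 for Cacna1c and 13.5 for Jph2.

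The genes also differed in how evenly they were expressed. Over the 20 libraries the coefficient of variation of CPM was 12.7% for Pln, 16.8% for S100a1 and 18.8% for Trdn, the 3 steadiest. It was 30.8% for Ryr2 and 44.6% for Jph2, the most variable, whose counts ran from 3 to 57 per library with a median of 16. Cacna1c was of similar depth, with 6 to 56 counts per library, so both of these genes carry a large counting error. Pln, in contrast, had a median of 5569 counts per library.

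**Figure D1:**
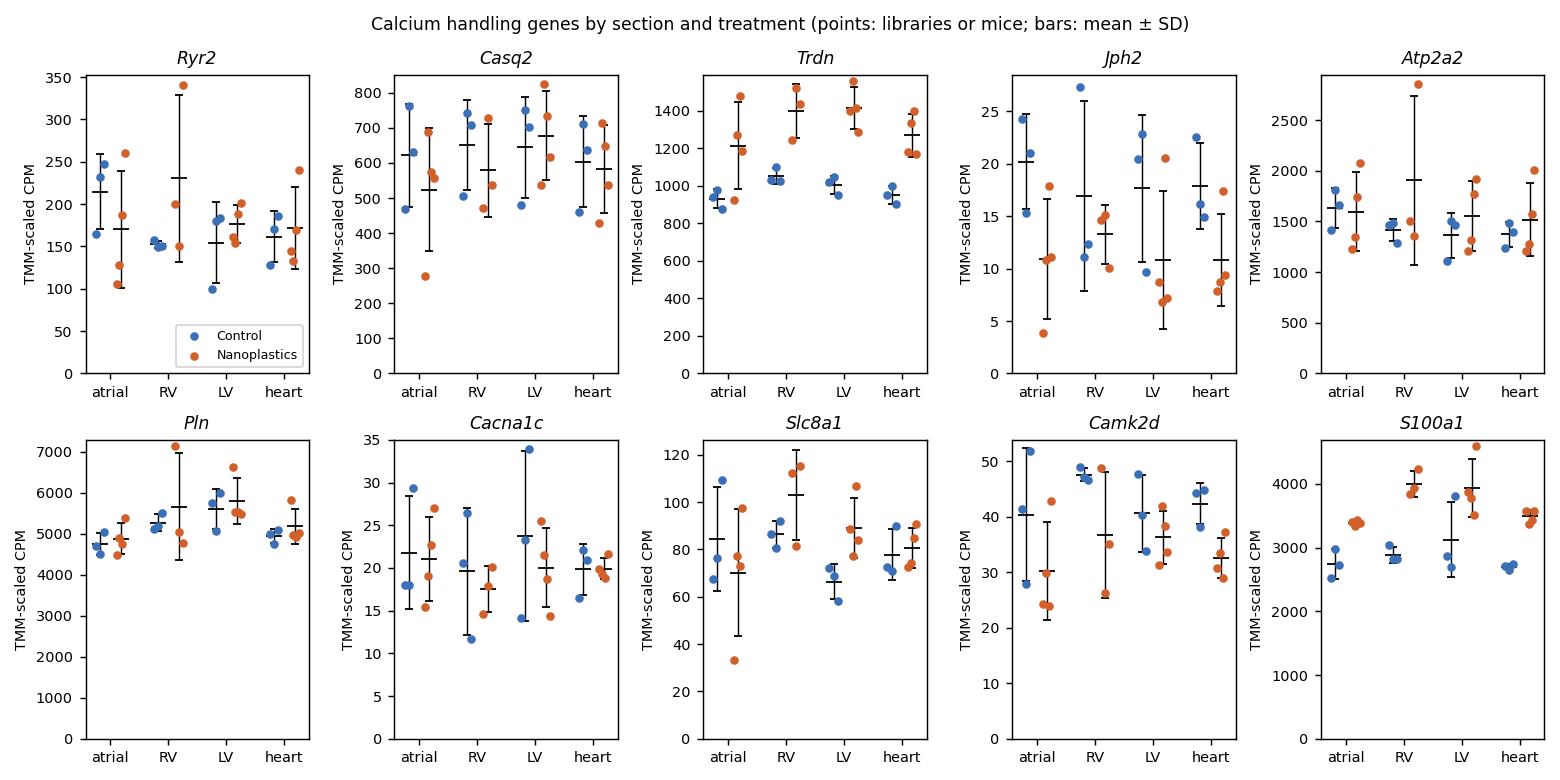
TMM-scaled CPM of the 10 genes on linear axes that start at 0, in the atrial, right ventricular (RV) and left ventricular (LV) sections and in the whole heart (the sum of the sections of a mouse), with blue points for control and orange points for nanoplastics, bars for mean ± SD, and the right ventricle of nanoplastics mouse 2 left out of the section values. The whole-heart points of Trdn and S100a1 lie higher in all 4 nanoplastics mice than in the 3 controls, and those of Camk2d lie lower.

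The sequences just upstream of the transcription start are shown for S100a1, Camk2d and Ryr2, on which the treatment and covariation results below turn, and for Casq2, the only member whose promoter entry held a match to the MEF2 motif, bound by a muscle transcription factor family. RefSeq promoter entries (GRCm38.p6) were present for 8 of the 10 genes, in 11 entries, and there was none for Atp2a2 or Trdn. Each run below is the 250 bases before the start, read 5′ to 3′ on the gene's strand. Capitals mark CG dinucleotides in S100a1, Camk2d and Ryr2, and the MEF2 match in Casq2.
S100a1, chr3:90514331-90514580, minus strand: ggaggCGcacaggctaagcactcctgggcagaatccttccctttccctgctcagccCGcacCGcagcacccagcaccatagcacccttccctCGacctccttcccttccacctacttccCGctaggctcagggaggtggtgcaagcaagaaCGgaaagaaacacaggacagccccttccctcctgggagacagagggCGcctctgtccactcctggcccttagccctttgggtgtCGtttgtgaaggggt
Camk2d, chr3:126596701-126596950, plus strand: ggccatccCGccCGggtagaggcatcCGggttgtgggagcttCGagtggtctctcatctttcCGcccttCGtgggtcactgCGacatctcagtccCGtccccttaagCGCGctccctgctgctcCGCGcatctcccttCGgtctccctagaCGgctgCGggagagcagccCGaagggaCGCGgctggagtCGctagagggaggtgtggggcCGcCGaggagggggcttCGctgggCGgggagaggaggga
Ryr2, chr13:12106946-12107195, minus strand: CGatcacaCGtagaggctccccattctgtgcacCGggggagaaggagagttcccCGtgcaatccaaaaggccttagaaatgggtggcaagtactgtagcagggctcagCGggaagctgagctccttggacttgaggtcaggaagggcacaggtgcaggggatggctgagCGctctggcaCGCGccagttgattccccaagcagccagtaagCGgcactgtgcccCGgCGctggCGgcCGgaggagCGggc
Casq2, chr3:102086165-102086414, plus strand: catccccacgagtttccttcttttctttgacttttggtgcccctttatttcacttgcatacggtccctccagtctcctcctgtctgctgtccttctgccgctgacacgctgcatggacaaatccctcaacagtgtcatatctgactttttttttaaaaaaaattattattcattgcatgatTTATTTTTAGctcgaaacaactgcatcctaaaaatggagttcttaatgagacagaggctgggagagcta
The upstream stretch of Camk2d holds 23 CG dinucleotides, more than 86.7% of the 32851 mouse promoter entries, against a median of 6. That of Ryr2 holds 14 (more than 70.6% of entries), that of S100a1 holds 8 (more than 57.0%) and that of Casq2 holds 5 (more than 44.4%). Motifs were searched on both strands of each whole entry, which also takes in the 50 bases after the start. Of all entries, 3.19% hold a match to MEF2 and 1.63% a match to the CArG box of serum response factor, while 11.2% hold AGATAA, the site of the GATA factors. The box TATAAA occurs in 13.6%, the muscle E box CAGCTG in 16.3% and the TEAD site CATTCC in 14.7%. Among the 11 entries of the members, MEF2 was matched in 1, the GATA site in 2, the TATA box in 1 and the E box in 4, and the CArG box and the TEAD site in 0. Of the 4 E box entries, those of Pln and Cacna1c hold it after the start, and the other two are overlapping entries of Jph2 that share a single match before it. A match describes letters in the entry and was not tested as a binding site.

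Nanoplastics and control hearts differed most in Trdn, S100a1, Jph2 and Camk2d, but no member passed the test of edgeR in any treatment comparison. For the whole heart the 3 sections of each mouse were added up by counts, so sections with more counts weigh more. Right ventricles gave 1333133 to 2042568 counts to the control sums and 4662 to 813585 to the nanoplastics sums. The part of this unequal mix of sections in the whole-heart differences was not tested. In the whole heart, Trdn and S100a1 were higher and Camk2d lower in every nanoplastics mouse than in every control, while Jph2 was lower on average with overlap. Across all genes tested there, edgeR called 2.56% at an adjusted p under 0.05 (217 of 8485, 152 higher and 65 lower; scaling by library totals alone turned this into 43 higher and 754 lower). With 1 mouse left out at a time the count ran from 0, without control mouse 2, to 201. At an unadjusted p under 0.05 stood 4 of the 10 members, 2 higher and 2 lower, against 18.2% of all genes. Groups did not overlap for 3 of the 10 members, against 16.1% of all genes. The median log2 change of the members was 0.061, and that of all genes -0.027. Where nothing in the labels says more than that the mice are separate animals of a group, p-values measure the spread between these 7 mice. In simulated counts of this comparison (8390 genes), edgeR recovered 81% of genes changed by 2-fold, and 14 of its 194 calls were false. The members' estimated changes were smaller than 2-fold, and such changes were not simulated, so this share does not tell how often they would be found.

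**Figure D2:**
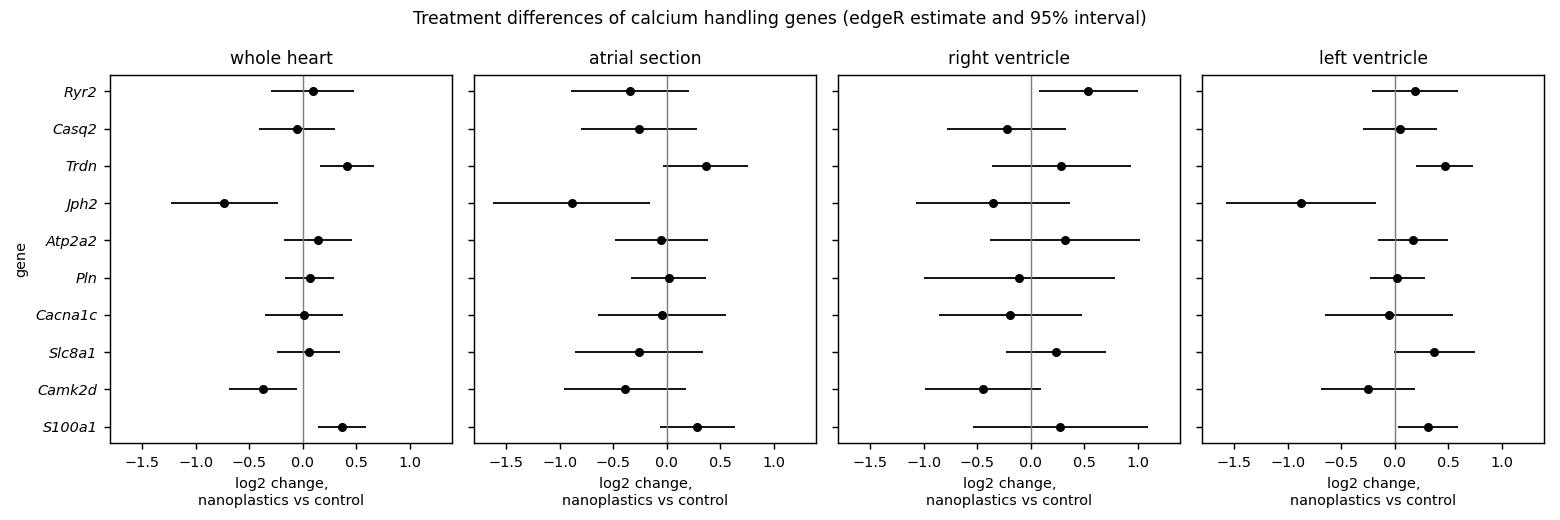
Log2 change of each of the 10 genes, nanoplastics against control, as the edgeR estimate (point) with its 95% interval (bar), in the whole heart and in each section. In the whole heart the intervals of Trdn and S100a1 lie above 0 and those of Jph2 and Camk2d below it, before any adjustment for the number of genes tested, and in the right ventricle the intervals include the library of 4662 counts.

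Within the release unit, Trdn encodes triadin, which anchors calsequestrin to the release channel. Its whole-heart levels were 951.8, 997.4 and 901.0 CPM in the control mice 1 to 3 and 1180, 1334, 1398 and 1167 CPM in the nanoplastics mice 1 to 4. All 4 nanoplastics mice lay above all 3 controls. The means were 950 ± 48.2 CPM (SD, n = 3) and 1270 ± 114 CPM (SD, n = 4), a log2 change of 0.42 (SE 0.12, 95% interval 0.16 to 0.67) with an adjusted p of 0.0713 by edgeR.

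The same direction was seen for Trdn in each section. In the left ventricle, controls stood at 1018, 1045 and 951.5 CPM and nanoplastics mice at 1399, 1559, 1415 and 1287 CPM, without overlap, and the log2 change was 0.47 (SE 0.13, edgeR adjusted p = 0.138). In the right ventricle, 1032, 1101 and 1025 CPM in controls compared with 1242, 1522 and 1434 CPM in nanoplastics mice 1, 3 and 4, again without overlap. The edgeR log2 change there was 0.29 (adjusted p = 0.762) with the library of 4662 counts, in which Trdn had 4 counts, and 0.39 (adjusted p = 0.254) without it. Without the right ventricle of nanoplastics mouse 3 it was 0.18 (adjusted p = 0.869). Summed markers of 3 of 10 cell type lists did not overlap between these right ventricles either. The 6 smooth muscle and pericyte markers summed to 415.8 to 476.4 CPM in controls and 159.8 to 333.1 CPM in nanoplastics mice 1, 3 and 4, with 1 of the 6 at a median of 0 there. The 8 endothelial markers summed to 1355 to 1580 and 956.5 to 1343 CPM, and the 10 atrial muscle markers to 145.1 to 308.3 and 351.8 to 545.6 CPM, with 2 of these 10 at a median of 0. Their part in the right ventricular results of Trdn and S100a1 was not tested, and in the other sections and the whole heart 0 of the 10 lists were without overlap. In the atrial sections the groups overlapped, since nanoplastics mouse 1, at 925.4 CPM, fell among the controls at 938.9, 978.1 and 878.2 CPM, while nanoplastics mice 2, 3 and 4 had 1269, 1481 and 1183 CPM. The atrial log2 change was 0.36 (edgeR adjusted p = 0.459), and 0.54 (adjusted p = 0.252) without the atria of nanoplastics mice 1 and 4, the libraries with the most atrial muscle markers. By DESeq2, Trdn was called in the left ventricle (log2 change 0.49, adjusted p = 0.021) and in the whole heart (0.44, adjusted p = 0.0115).

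Jph2 encodes junctophilin, which holds the outer membrane close to the calcium store. Whole-heart levels were 22.59, 16.18 and 14.92 CPM in controls and 7.858, 8.72, 17.4 and 9.399 CPM in nanoplastics mice 1 to 4. Nanoplastics mice 1, 2 and 4 lay below every control, and nanoplastics mouse 3 lay among them. The means were 17.9 ± 4.12 CPM (SD, n = 3) and 10.8 ± 4.42 CPM (SD, n = 4), with a log2 change of -0.73 (SE 0.24, 95% interval -1.24 to -0.23, edgeR adjusted p = 0.104). Without nanoplastics mouse 3 the value was -1.05 and passed the test (adjusted p = 0.031), and without control mouse 1 it was -0.49 (adjusted p = 0.408). By section, the edgeR log2 change of Jph2 was -0.89 in the atria (adjusted p = 0.342), -0.88 in the left ventricle (adjusted p = 0.225) and -0.35 in the right ventricle (adjusted p = 0.727, or -0.37 and 0.751 without the library of 4662 counts), with overlapping groups in each. Without the left ventricle of nanoplastics mouse 3 the left ventricular value of Jph2 was -1.39 (edgeR adjusted p = 0.113), and without the right ventricle of mouse 4 the right ventricular one was -0.23 (adjusted p = 0.901). The related junctophilin Jph1, named here after its values were seen, had 6.831, 6.292 and 6.311 CPM in control hearts and 2.994, 3.212, 4.714 and 3.418 CPM in nanoplastics hearts. These groups did not overlap, and the log2 change was -0.85 (SE 0.27, edgeR adjusted p = 0.09).

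Ryr2 encodes the release channel itself and showed no common direction. Whole-heart levels were 127.9, 170.8 and 186.2 CPM in controls and 144.1, 133.1, 169.3 and 240.1 CPM in nanoplastics mice, a log2 change of 0.091 (95% interval -0.30 to 0.48, edgeR adjusted p = 0.853). In the atria, nanoplastics mice 1 and 2 had the lowest Ryr2 levels, 105.1 and 128.0 CPM, and mouse 4 the highest, 259.9 CPM, around controls at 164.6, 232.4 and 247.0 CPM. In the right ventricle, controls stood close together at 157.4, 148.8 and 151.1 CPM, and nanoplastics mice 1, 3 and 4 had 200.2, 150.2 and 341.0 CPM. The log2 change of Ryr2 there was 0.54 (unadjusted p = 0.0225, adjusted p = 0.253 by edgeR) with the library of 4662 counts, where Ryr2 had 0 counts, and 0.55 (adjusted p = 0.231) without it. Without the right ventricle of nanoplastics mouse 4 it was 0.14 (edgeR adjusted p = 0.905), and without that of mouse 3 it was 0.78 (adjusted p = 0.057).

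Casq2 encodes calsequestrin, the main calcium buffer of the store. It had 461.3, 711.9 and 638.3 CPM in control hearts and 430.0, 715.0, 649.7 and 536.3 CPM in nanoplastics hearts, so that each group spanned almost the range of the other. Its whole-heart log2 change was -0.054 (95% interval -0.41 to 0.30, edgeR adjusted p = 0.911). In the atrial section of nanoplastics mouse 1, the library richest in atrial muscle markers, Casq2 was at 276.9 CPM, the lowest of the 20 libraries.

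Of the uptake genes, Atp2a2 encodes the SERCA pump. Its whole-heart levels were 1240, 1485 and 1396 CPM in controls and 1209, 1281, 1572 and 2007 CPM in nanoplastics mice, with a log2 change of 0.14 (95% interval -0.17 to 0.46, edgeR adjusted p = 0.685). Nanoplastics mice 1 and 2 lay within or just below the control range and mice 3 and 4 above it. Pln encodes phospholamban, which inhibits the pump until it is phosphorylated. It stood at 5007, 4744 and 5085 CPM in controls and at 5824, 4963, 4917 and 5030 CPM in nanoplastics mice, a log2 change of 0.066 (95% interval -0.16 to 0.30, edgeR adjusted p = 0.812). Nanoplastics mouse 1 stood above the other 6 hearts, and the remaining 3 nanoplastics mice lay within the control range.

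Among the membrane genes, Cacna1c, the pore subunit of the L-type calcium channel, had 16.46, 22.11 and 20.94 CPM in control hearts and 19.83, 19.27, 18.85 and 21.65 CPM in nanoplastics hearts. All nanoplastics values fell inside the control range, and the log2 change was 0.012 (95% interval -0.35 to 0.38, edgeR adjusted p = 0.982). Slc8a1, the sodium-calcium exchanger, had whole-heart levels of 72.51, 70.83 and 90.07 CPM in controls and 72.6, 74.35, 84.84 and 90.57 CPM in nanoplastics mice (log2 change 0.056, edgeR adjusted p = 0.885). In the left ventricle alone its groups did not overlap, at 72.3, 68.86 and 58.11 CPM in controls and 88.77, 77.02, 106.7 and 84.06 CPM in nanoplastics mice. The left ventricular log2 change of Slc8a1 was 0.37 (SE 0.19, edgeR adjusted p = 0.372), and that in the atria was -0.26 (adjusted p = 0.756). The atrial value of Slc8a1 ran from -0.48 without nanoplastics mouse 4 to -0.024 without control mouse 3, and was -0.038 without nanoplastics mouse 1.

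Of the regulators, S100a1 encodes a sensor protein that binds the release channel and the pump. Whole-heart levels were 2705, 2655 and 2746 CPM in controls and 3573, 3374, 3435 and 3572 CPM in nanoplastics mice. The groups were tight and did not overlap, with means of 2700 ± 45.5 CPM (SD, n = 3) and 3490 ± 100 CPM (SD, n = 4). The log2 change of S100a1 was 0.37 (SE 0.11, 95% interval 0.14 to 0.59) with an adjusted p of 0.0736 by edgeR and of 0.0105 by DESeq2. Atrial levels did not overlap either, at 2515, 2975 and 2733 CPM in controls and 3401, 3331, 3425 and 3392 CPM in nanoplastics mice (log2 change 0.28, edgeR adjusted p = 0.523). In the left ventricle they overlapped through control mouse 3, at 3801 CPM, in the control library with the fewest counts.

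In the right ventricle, S100a1 stood at 3034, 2815 and 2813 CPM in controls and at 3840, 3928 and 4233 CPM in nanoplastics mice 1, 3 and 4, without overlap. The right ventricular log2 change was 0.28 (edgeR adjusted p = 0.828) with the library of 4662 counts, in which S100a1 had 14 counts, and 0.45 (adjusted p = 0.156) without it. Without the right ventricle of nanoplastics mouse 4 it was 0.15 (adjusted p = 0.968). S100a1 has the shortest annotated transcript of the 10 genes, 677 nt. The annotated length of the counted transcripts was lower on average with nanoplastics, without passing the adjusted threshold. With 3 against 4 mice the smallest p of the exact test is 0.0286, so 1 measure alone could not pass after adjustment over 24. The median annotated transcript length per count was averaged over the libraries of each mouse, with that of 4662 counts included. It was 1718 ± 36.67 nt (SD, n = 3) in control hearts and 1543 ± 86.86 nt (SD, n = 4) in nanoplastics hearts, without overlap (exact two-sided permutation p = 0.0571, adjusted p = 0.343). In the atria it was 1743 ± 49.94 nt against 1495 ± 118.2 nt, also without overlap (exact permutation p = 0.0286, adjusted p = 0.343). In the left ventricle this length was 1672 ± 66.97 nt against 1530 ± 46.77 nt, without overlap (exact permutation p = 0.0571, adjusted p = 0.343). In the right ventricle, with the library of 4662 counts, this length was 1741 ± 46.97 nt against 1604 ± 155.9 nt with overlap (exact permutation p = 0.2, adjusted p = 0.6). The overlap came from that library alone, at 1825 nt. Nanoplastics mice 1, 3 and 4 had 1473, 1596 and 1521 nt there, below the controls at 1698 to 1791 nt. With a trend on transcript length removed from each library, the whole-heart log2 change of S100a1 was 0.072 (edgeR adjusted p = 0.784), that in the atria turned to -0.045, and that of Trdn in the whole heart was 0.52 (adjusted p = 0.0345). Whether transcript length is a cause of the S100a1 difference was not tested.

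Camk2d encodes the delta form of calcium/calmodulin-dependent protein kinase II, which phosphorylates the release channel and phospholamban. Whole-heart levels were 44.31, 38.11 and 44.75 CPM in controls and 30.69, 33.5, 29.01 and 37.31 CPM in nanoplastics mice. All 4 nanoplastics mice lay below all 3 controls, with means of 42.4 ± 3.71 CPM (SD, n = 3) and 32.6 ± 3.63 CPM (SD, n = 4). The log2 change was -0.37 (SE 0.15, 95% interval -0.69 to -0.055, edgeR adjusted p = 0.191). By section the Camk2d groups overlapped, and the edgeR log2 changes were -0.39 in the atria, -0.44 and -0.25 in the right and left ventricle, with adjusted p-values of 0.608, 0.506 and 0.637. Without the library of 4662 counts the right ventricular value of Camk2d was -0.46 (edgeR adjusted p = 0.446). Single libraries moved these values: with 1 left out, Camk2d ran from -0.65 (without nanoplastics mouse 4) to -0.16 (without control mouse 3) in the atria. In the right ventricle it ran from -0.70 (without nanoplastics mouse 1) to -0.19 (without nanoplastics mouse 3), and in the left ventricle it was -0.093 without control mouse 1.

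**Figure D3:**
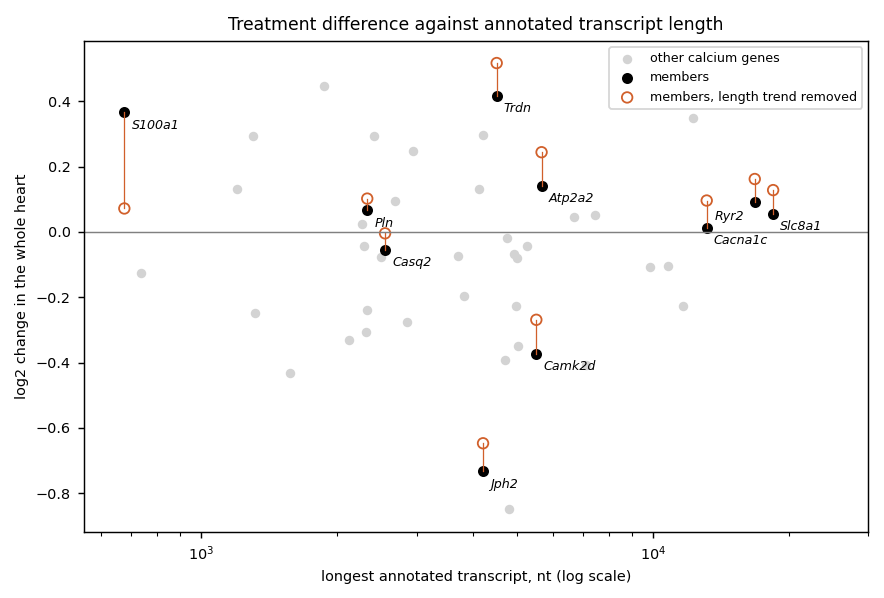
Whole-heart log2 change, nanoplastics against control, against the length of the longest annotated transcript (log axis) for the 10 members (black), the same after a length trend was removed in each library (open orange circles), and the other calcium genes (grey; Sln, whose log2 change lies off this scale, and Strit1, which has no length, are left out). S100a1, the shortest, moves from 0.37 to 0.072, whereas Jph2, at 4211 nt, moves from -0.73 to -0.65.

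Section by section, the members that passed a threshold were S100a1, Trdn, Jph2, Ryr2 or Slc8a1. In the atria 0 of 10 members passed an adjusted p under 0.05 (0% of all genes by edgeR), 1 of 10 an unadjusted p under 0.05 (12.3%), and 1 of 10 did not overlap (13.2%). In the right ventricle these counts were 0 of 10 (0.869%), 1 of 10 (13.5%), and, with the library of 4662 counts left out, 2 of 10 (22.2%). In the left ventricle they were 0 of 10 (0.0551%), 3 of 10 (14.1%) and 2 of 10 (12.6%). DESeq2 gave an adjusted p to 5, 10, 6 and 9 members in the atria, right ventricle, left ventricle and whole heart and called 0, 0, 1 and 2 of them. These compare with 19.3%, 0%, 11.5% and 9.38% of the 486, 4489, 693 and 3549 genes to which it gave one. The members that did not overlap were S100a1 in the atria, Trdn and S100a1 in the right ventricle, and Trdn and Slc8a1 in the left ventricle, all higher with nanoplastics.

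The other 50 genes of 6 calcium lists (release unit, uptake, membrane entry and exit, kinases and sensors, store-operated and IP3-linked release, mitochondrial calcium) gave 0 calls by edgeR in every comparison. DESeq2 called 1 of the 20 to which it gave an adjusted p in the whole heart, Sln, and 0 in each section. In the whole heart 37 of the 50 were tested, 14 with a positive and 23 with a negative log2 change, at a median of -0.073. At an unadjusted p under 0.05, 0 were higher and 4 lower, against 9.15% and 9.02% of all genes. These 4, named after their values were seen, were Jph1 (above), the potassium channel of the store Tmem38a (log2 change -0.33, adjusted p = 0.192), the membrane calcium pump Atp2b1 (-0.41, adjusted p = 0.181) and the channel inhibitor Rrad (-0.43, adjusted p = 0.218). Tmem38a had 207 ± 9.25 CPM (SD, n = 3) in control hearts and 165 ± 23.9 CPM (SD, n = 4) in nanoplastics hearts, and Atp2b1 34.2 ± 3.28 and 25.8 ± 3.94 CPM, without overlap in either gene. Hrc, a histidine-rich calcium binding protein of the store, had 520.9, 572.6 and 818.1 CPM in controls and 862.6, 602.1, 662.1 and 1002 CPM in nanoplastics mice, with overlap (log2 change 0.29, adjusted p = 0.439).

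Sln encodes sarcolipin, a pump inhibitor of atrial muscle, and served to place the sections. In the atria it had 7.195, 127.0 and 9.097 CPM in controls and 22330, 10.8, 1.194 and 1392 CPM in nanoplastics mice 1 to 4. Only nanoplastics mice 1 and 4 stood above the control range, the same mice whose atrial sections had the highest sums of atrial muscle markers, among which Sln is counted. The whole-heart log2 change of Sln, 7.19 (95% interval -0.96 to 15.3, edgeR adjusted p = 0.33), rests on these mice, at 6521 and 984.1 CPM, against 2.176 to 28.77 CPM in the other 5.

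Sections were compared within mice, with the mouse as a block and both treatments together, to ask whether the calcium handling genes differ between the labelled sections. Atrial muscle markers bear out the label atrial poorly, as given above. Values for the atria, here and in the ratios below, are thus differences between labelled sections. Whether they reflect atrial against ventricular muscle was not tested. Pln was lower in the atrial section than in the left ventricle in 7 of 7 mice, and no member passed the test of edgeR in any pair of sections. It was the only one of the 10 members with the same direction in every mouse for this pair. The share of all genes with such agreement was not computed, here or for the other pairs. Atrial Pln levels ran from 4490 to 5397 CPM with a median of 4752, and left ventricular levels from 5072 to 6643 CPM with a median of 5540. The log2 difference, atria minus left ventricle, was -0.22 (SE 0.083, unadjusted p = 0.0166, adjusted p = 0.286 by edgeR), and -0.20 (adjusted p = 0.134) without nanoplastics mice 1 and 4. Casq2 was lower in the atria in 6 of 7 mice (-0.24, adjusted p = 0.36, and -0.13 without nanoplastics mouse 1), and Atp2a2 was higher in 6 of 7 (0.16, adjusted p = 0.464). Across all genes, 0.155% passed an adjusted p under 0.05 in this pair of sections and 12.6% an unadjusted p under 0.05, against 0 of 10 and 2 of 10 members.

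Between the atria and the right ventricle 0 of 10 members passed either threshold, against 0.606% and 7.27% of all genes. Trdn was lower in the atria than in the right ventricle in 6 of 6 mice, by 0.039 to 0.43 on the log2 scale, yet the edgeR estimate over 7 mice, including the library of 4662 counts, was -0.098 (adjusted p = 0.988), and -0.20 (adjusted p = 0.727) without that mouse. Between the ventricles 0 of 10 members passed either threshold, against 0.02% and 5.21% of all genes. Slc8a1 came nearest, higher in the right ventricle in 5 of 6 mice (log2 difference 0.23, unadjusted p = 0.0501, adjusted p = 0.914 by edgeR, and 0.24 with an adjusted p of 0.938 without nanoplastics mouse 2).

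The nanoplastics effect itself was compared between sections as an interaction over 21 libraries. The estimated nanoplastics effects on Ryr2 and Slc8a1 were lower in the atria than in the left ventricle, by -0.62 (SE 0.26, unadjusted p = 0.0235) and -0.61 (SE 0.28, unadjusted p = 0.0336) on the log2 scale, each with an adjusted p of 0.901 by edgeR. The interaction was not refitted without the atrial section of nanoplastics mouse 1, the library richest in atrial muscle markers. These 2 of 10 members at an unadjusted p under 0.05 compare with 5.5% of all genes, and 0 of 10 passed the adjusted threshold (0% of all genes). For the right against the left ventricle, 0 of 10 members passed an unadjusted p under 0.05 (3% of all genes) or an adjusted one (0%).

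Ratios between members within a library do not depend on how libraries are scaled. The ratio of Pln to Atp2a2 counts, inhibitor to pump, was lower in the atrial section than in the left ventricle in 7 of 7 mice, by 0.37 ± 0.20 (SD) on the log2 scale. Of the 5 ratios it was the only one with the same direction in every mouse for a pair of sections. Its median was 3.03 in the atria (range 2.49 to 3.66), 3.61 in the right ventricle (1.67 to 4.76) and 4.09 in the left ventricle (2.85 to 5.5). The ratio of Casq2 to Ryr2, buffer to channel, was lower in the atria than in the left ventricle in 6 of 7 mice, with medians of 2.85 and 3.9. Between treatments, none of 5 ratios at 4 levels passed the exact two-sided permutation test (20 tests, adjusted p 0.902 to 0.971). The smallest p that 3 against 4 mice allow is 0.0286, so 1 ratio alone could not pass after adjustment. Right ventricular ratios in these tests include the library of 4662 counts, where Ryr2 and Cacna1c had 0 counts. The lowest unadjusted p was for S100a1 to Ryr2 in the atria, with ratios of 11.1 to 15.2 in controls and 13.0 to 32.2 in nanoplastics mice (geometric means 12.9 and 21.1, exact permutation p = 0.114). Pln to Atp2a2 in the whole heart was 3.61 in controls and 3.48 in nanoplastics mice as geometric means (exact permutation p = 0.857).

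Across libraries, Ryr2 and Atp2a2, the channel that releases calcium and the pump that returns it, varied together more closely than any other pair of the 10 genes. Over 20 libraries from 7 mice, Pearson's r of their log2 CPM was 0.895 and Spearman's rho 0.866. Leaving out the 2 farthest libraries gave r = 0.818, and with the mean of each section and treatment group removed r was 0.904. Libraries of a mouse share an animal, and all share the scaling by depth, so these values are given as a description without a p. The right ventricle of nanoplastics mouse 4 was the highest for both genes, at 341.0 CPM of Ryr2 and 2861 CPM of Atp2a2. Next among the 45 pairs came Trdn and S100a1 with r = 0.684, which became -0.197 once group means were removed, and Ryr2 and Slc8a1 with r = 0.618, which stayed at 0.599.

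**Figure D4:**
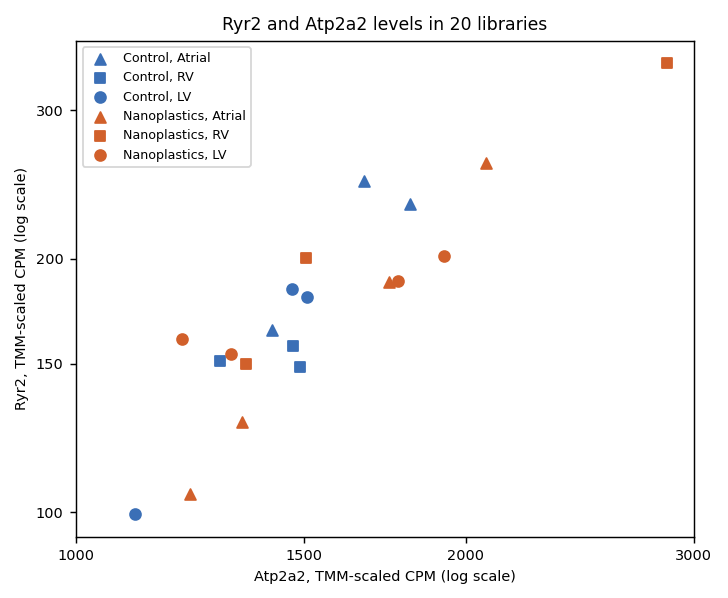
Ryr2 against Atp2a2, both in TMM-scaled CPM on log axes, in 20 libraries, with blue for control and orange for nanoplastics and with triangles, squares and circles for atrial, RV and LV sections. The points follow a single rising band (r = 0.895), and the right ventricle of nanoplastics mouse 4 lies at its upper end.

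Among 1726 genes with a mean of at least 50 CPM, those whose log2 CPM followed the mean of the 10 members most closely over the 20 libraries were Vldlr (r = 0.783), Myom1 (0.775), Oxct1 (0.761), Akap9 (0.745) and Klhl24 (0.745). Without the 2 farthest libraries these values were 0.32 to 0.463, so the likeness rests largely on those libraries.

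**Figure D5:**
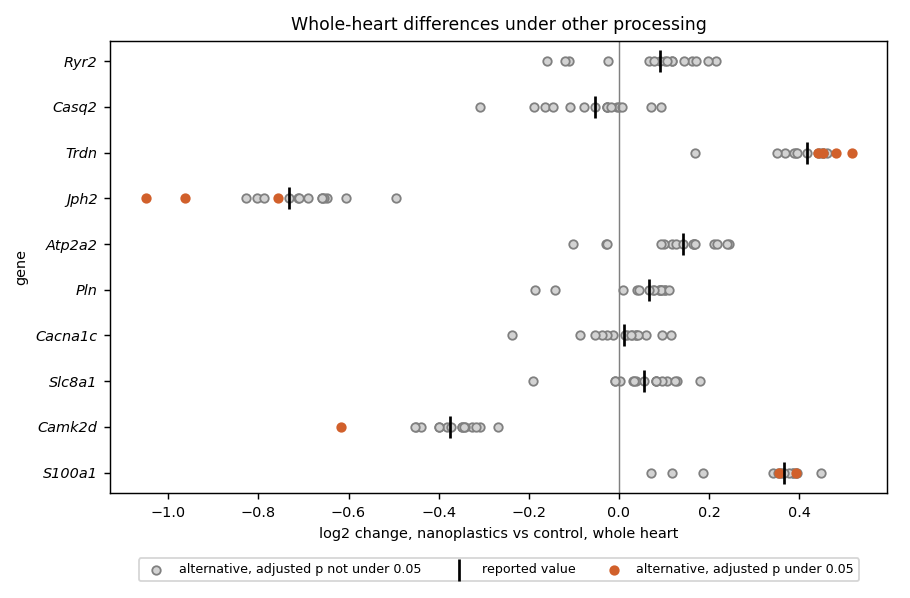
Whole-heart log2 change of each member, nanoplastics against control, as reported (black bar) and under each of 16 other ways of processing or leaving out samples (circles, orange where the adjusted p was under 0.05). Trdn, S100a1, Jph2 and Camk2d stay on their side of 0 under all 16 alternatives, whereas those of the other 6 genes fall on both sides.

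Other processing moved the 4 members that differed most across the threshold in the whole heart. Trdn had an adjusted p under 0.05 under 4 of 16 alternatives (log2 change 0.17 to 0.52 over all 16), Jph2 under 3 (-1.05 to -0.49, with no adjusted p by DESeq2), S100a1 under 2 (0.072 to 0.45) and Camk2d under 1 (-0.62 to -0.27). The calls of both Trdn and S100a1 came by DESeq2 and with a block on replicate number, although these numbers name different animals in the 2 treatments. Trdn was also called with the length trend removed and without the atria of nanoplastics mice 1 and 4, the latter chosen after seeing the data. Under library totals alone, which put the median of all genes at -0.27, Jph2 was at -0.96 and Camk2d at -0.62 (adjusted p = 0.0269 for both by edgeR), while Trdn was at 0.17 (adjusted p = 0.311) and S100a1 at 0.12 (adjusted p = 0.4).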

How the data were processed

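RNA was measured in 21 libraries of heart sections from 7 mice. Per the labels' protocols, RNA with a poly(A) tail was bound to oligo-dT beads, template switching put a barcode for the well on the 5′ end, and all wells were amplified together and sequenced as read pairs. The authors deposited raw counts per gene symbol in a table of 20960 genes. STAR, which aligns reads, is named in the submitters' processing notes with no version. For the build, the annotation, the counting program, strand and molecular identifiers, nothing is stated in the sources used here, so overlapping and antisense genes are uncertain. Library totals ran from 4662 to 2439314 counts, which sets the precision of each level. Floors given for a count of 0 cover only the error of counting.

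The deposited counts were fitted with edgeR 4.0.16 in R 4.3.3 (filterByExpr, TMM scaling, robust quasi-likelihood test, Benjamini-Hochberg adjustment over all genes tested, calls at an adjusted p under 0.05), with DESeq2 1.42.0 and limma 3.58.1 as alternatives. CPM are TMM-scaled, and marker sums and library measures use library totals. Treatments were compared per section and on counts summed per mouse, sections with the mouse as a block, and the treatment effect between sections as an interaction. Ratios used 0.5 added to each count and exact permutation tests over the 35 splits of 7 mice. Replicate numbers name different animals in the 2 treatments. Transcript lengths are the longest per symbol in GENCODE M21, which holds 20504 of the symbols. The fits were tested on simulated counts, where edgeR recovered 49%, 58% and 69% of 2-fold changes in the atria (5345 genes), right ventricle (4211) and left ventricle (5155). Of its calls there, 14 of 156, 7 of 163 and 10 of 178 were false. None of the 210 pairs of libraries was identical.

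The members and lists were chosen with earlier results of these data known. Named are all 10 members, every other calcium gene called (none by edgeR), Sln and Hrc always, and the 5 genes most like the members' mean. Jph1, Tmem38a, Atp2b1 and Rrad were named after their values were seen. The alternatives tried are given in the closing section.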

Additional observations from a re-analysis of the deposited data

Results flagged for a closer look

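Among 40 groups of 4 nanoplastics libraries or mice (10 genes at 4 levels), 5 held a value far from the other 3 by Dixon's criterion, where chance flags about 1 in 20 groups. Jph2 in nanoplastics mouse 3 was 20.59 CPM in the left ventricle, against 6.796, 7.205 and 8.732 CPM in the other 3 mice. The same mouse had 17.4 CPM of Jph2 in the whole heart, against 7.858, 8.72 and 9.399 CPM. Pln in nanoplastics mouse 1 was 6643 CPM in the left ventricle, against 5477 to 5540 CPM in the others, and 5824 CPM in the whole heart, against 4917 to 5030 CPM. S100a1 in the right ventricle of nanoplastics mouse 2 was 1155 CPM, which rests on 14 counts of a library of 4662, against 3840 to 4233 CPM in the other 3. That value is divided by a TMM factor of 2.6, against 0.7832 to 1.12 in the other libraries. The flag therefore cannot tell a low S100a1 level from the scaling. The whole-heart values contain the left ventricular ones, so these flags are not independent.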

How the results depend on the processing

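The members' log2 changes were recomputed under the alternatives, for all 10 with treatment and between sections and for Ryr2 and Slc8a1 in the interactions. Jph2 did not pass the filter in the right ventricle when a control was left out. Of 939 such values, 824 kept direction and side of the threshold, 10 kept direction but had no adjusted p by DESeq2, 11 kept direction and passed it, and 94 changed sign, all without passing it before or after. The 11 are Trdn, Jph2, S100a1 and Camk2d in the whole heart and Trdn in the left ventricle, given in the report.

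Counts of called genes moved more. Without the filter on low counts they were 17 in the atrial treatment comparison, 20 in the right ventricle, 30 in the left ventricle, 115 for atria against left ventricle, 65 for atria against right ventricle and 2 between the ventricles. DESeq2 called 94, 0, 80 and 333 genes with treatment in the atria, right ventricle, left ventricle and whole heart, 4 between atria and right ventricle and 0 between the ventricles. Scaling by library totals alone gave 234, 23 and 797 with treatment in the right ventricle, left ventricle and whole heart (11, 0 and 43 of them higher), and 42, 10 and 0 between sections. DESeq2's size factors in edgeR gave 73 in the right ventricle (25 higher). Removing the length trend gave 0, 5 and 62 in the right ventricle, left ventricle and whole heart. Leaving out 1 library or mouse at a time gave 0 to 1 in the atria, 4 to 175 in the right ventricle, 0 to 21 in the left ventricle, 0 to 201 in the whole heart, and 0 to 98, 3 to 92 and 0 to 5 for atria against left ventricle, atria against right ventricle and between the ventricles. In the whole heart the count was 0 without control mouse 2, 27 without control mouse 3, and 32, 26 and 135 without nanoplastics mice 1, 2 and 4. In the right ventricle it was 68 without the library of 4662 counts and 175 without nanoplastics mouse 3. Without nanoplastics mice 1 and 4, an alternative chosen after seeing the data, 127 were called between atria and left ventricle. Without the right ventricle of nanoplastics mouse 2, 1 gene was called in the interaction of atria and left ventricle. The cause of these moves was not tested.

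Replicate numbers did not pair the mice, since correlations of same-numbered deviations ran from -0.261 to 0.137. With the replicate block, treatment calls were 106, 4 and 0 in the atria, right ventricle and left ventricle, and S100a1 (0.35, edgeR adjusted p = 0.0246) and Trdn (0.45, adjusted p = 0.0189) were called in the whole heart. Under the same replicate block the sign changed for Pln (-0.037) in the atria, Trdn (-0.0022), Atp2a2 (-0.16), Cacna1c (0.059) and S100a1 (-0.038) in the right ventricle, Cacna1c (0.065) in the left ventricle, and Ryr2 (-0.11), Atp2a2 (-0.029), Cacna1c (-0.026) and Slc8a1 (-0.0083) in the whole heart. Without the replicate block, the section comparisons called 0, 0 and 0 genes, and Jph2 (-0.082) and Pln (-0.041) changed sign for atria against right ventricle and Jph2 (0.087) between the ventricles.

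Library totals alone changed the sign of Pln (-0.21) in the atria, Slc8a1 (-0.060) in the right ventricle, Ryr2 (-0.014), Casq2 (-0.15), Atp2a2 (-0.019) and Pln (-0.16) in the left ventricle, and Ryr2 (-0.16), Atp2a2 (-0.10), Pln (-0.19), Cacna1c (-0.24) and Slc8a1 (-0.19) in the whole heart. Between sections it did so for Slc8a1 (0.035, atria against left ventricle), Pln (-0.071, atria against right ventricle) and Trdn (0.083), Cacna1c (0.0044) and S100a1 (0.0014) between the ventricles. It moved the median log2 change of all genes to -0.262, -0.294, -0.211 and -0.271 in the atria, right ventricle, left ventricle and whole heart.

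Removal of the length trend changed the sign of Atp2a2 (0.14), Cacna1c (0.21), Slc8a1 (0.011) and S100a1 (-0.045) in the atria and Pln (0.35) in the right ventricle. The unfiltered fit did so for Cacna1c (-0.012 in the whole heart, -0.020 for atria against left ventricle) and S100a1 (0.030, atria against right ventricle). Other fits turned Pln in the whole heart (-0.14, limma-voom), S100a1 for atria against right ventricle (0.011 with DESeq2's size factors, 0.015 by DESeq2), Trdn (0.012 with those size factors) and Jph2 (0.049 by DESeq2) between the ventricles. Without the atria of nanoplastics mice 1 and 4, Casq2 was at 0.0068 and Cacna1c at -0.052 in the whole heart, and Casq2 at 0.0022 and Pln at -0.00013 in the atria. Without these mice altogether, Cacna1c was at -0.016 and Slc8a1 at 0.060 for atria against left ventricle.

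With 1 library or mouse left out at a time, the following log2 changes crossed 0. With treatment, they were Atp2a2 (-0.21 to 0.065), Pln (-0.037 to 0.064) and Cacna1c (-0.23 to 0.25) in the atria, and Atp2a2 (-0.089 to 0.44), Pln (-0.37 to 0.077) and Cacna1c (-0.44 to 0.076) in the right ventricle. In the left ventricle they were Ryr2 (-0.048 to 0.36), Casq2 (-0.10 to 0.19), Pln (-0.046 to 0.090) and Cacna1c (-0.35 to 0.12), and in the whole heart Ryr2 (-0.12 to 0.21), Casq2 (-0.19 to 0.093), Atp2a2 (-0.026 to 0.24), Cacna1c (-0.086 to 0.12) and Slc8a1 (-0.0091 to 0.18). For atria against left ventricle they were Jph2 (-0.024 to 0.24), Cacna1c (-0.13 to 0.14) and Slc8a1 (-0.20 to 0.095). For atria against right ventricle they were Ryr2 (-0.0022 to 0.29), Jph2 (-0.028 to 0.30), Pln (-0.17 to 0.073), Cacna1c (-0.055 to 0.46) and S100a1 (-0.15 to 0.058), and between the ventricles Trdn (-0.055 to 0.059), Jph2 (-0.42 to 0.29), Atp2a2 (-0.0028 to 0.17) and Cacna1c (-0.22 to 0.16).

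Of 170 recomputed log2 differences of ratios between treatments, 18 changed sign and none passed the test. The absence of passes does not show stability. With 3 against 4 mice the smallest p of the exact test is 0.0286, so 1 ratio alone could not pass after adjustment. With 1 mouse left out the smallest p lies above 0.05, so no ratio could pass. With 1 added to each count, S100a1 to Ryr2 in the right ventricle was -0.12. Without the right ventricle of nanoplastics mouse 2, Slc8a1 to Atp2a2 was -0.098, S100a1 to Ryr2 -0.046 and Cacna1c to Ryr2 -0.55 there. With 1 mouse left out, Pln to Atp2a2 ran from -0.026 to 0.18 in the atria, -0.31 to 0.030 in the left ventricle and -0.21 to 0.10 in the whole heart. Casq2 to Ryr2 ran from -0.16 to 0.28 in the atria and -0.34 to 0.084 in the whole heart, S100a1 to Ryr2 from -0.12 to 0.35 in the left ventricle and -0.046 to 0.36 in the right, Slc8a1 to Atp2a2 from -0.18 to 0.033 in the whole heart and -0.098 to 0.51 in the right ventricle, and Cacna1c to Ryr2 from -0.14 to 0.087 and -0.55 to 0.79 in the same places. Depth limits Jph2 and Cacna1c most, with medians of 16 and 20 counts per library.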
